A study of Mus musculus with 6 samples.

Results

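The genes described are 9 members of the signal transducer and activator of transcription (STAT) family and the Janus kinase (JAK) family: Stat2, Stat3, Stat4, Stat5a, Stat5b, Stat6, Jak1, Jak2 and Tyk2. They were found by gene name, and they are 9 of the 54532 genes in the deposited table. Other genes of both families were not analysed here. RNA was sequenced from N9 cells, an immortalized microglial line derived from mouse brain. The 3 libraries of the LPS group came from cells given lipopolysaccharide, which comes from the outer membrane of gram-negative bacteria, at 1 µg/ml for 6 h. The 3 control libraries came from untreated cells, and both groups were grown in the same serum-containing medium with antibiotics. The line is a single one, and the labels do not say that replicates came from separate cultures, so p-values measure the spread between these samples, which may be technical.

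Janus kinases are tyrosine kinases that sit on the inner part of cytokine receptors. When a cytokine binds, they phosphorylate the receptor and then STAT proteins, which pair, enter the nucleus and bind DNA. In microglia and macrophages, interferons, interleukin-6 family cytokines, interleukin-4 and some colony-stimulating factors signal by this route. LPS reaches it through cytokines that the cells release.

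The total count was between 16363767 and 17956772 per library, and LPS was compared with control by the quasi-likelihood test of edgeR on counts. Levels are in CPM, the count of a gene relative to the library total, scaled by edgeR's trimmed mean of M values (TMM), and values after ± are SD over the 3 libraries of a group. Of the microglial and macrophage markers, Csf1r was abundant, with 7140 to 8027 counts per library. Other microglial markers were nearly absent, with 3 to 6 counts for P2ry12 and 0 to 1 for Sall1. Of 13 hepatocyte markers in the table, the summed level was between 0.234 and 26.7 CPM in control libraries and between 0.305 and 0.609 CPM in LPS libraries, high in control replicates 2 and 3. Without those 2 control libraries, a setting chosen after the data were seen, 4 members were still called higher and 1 lower by edgeR, with the spread of the lone control assumed to be that of the other group. In that fit 13% of all tested genes were called higher and 8.89% lower.

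With LPS, 4 of the 8 members that could be tested were higher, namely Stat2, Tyk2, Stat3 and Jak1, and 1 was lower, Stat5b, at an edgeR adjusted p under 0.05. Of all 12296 genes tested, 18.7% were called higher and 15.7% lower by this rule. With library totals alone in place of TMM the split of all tested genes was 1520 higher (12.4%) to 3342 lower (27.2%), against 2294 to 1927 with TMM, and the member counts were 4 higher and 3 lower. By the thresholds of the study for a differentially expressed gene (DEG), which add a log2 fold change over 1.5, 1 member was higher, Stat2, and 0 were lower by edgeR, with DESeq2 also calling 1 member, where 2.4% of all tested genes were higher DEG and 0.252% lower DEG. At an unadjusted p under 0.05 and any size, 2 members were lower by edgeR, Stat5a and Stat5b, where 20.2% of all tested genes were lower by that rule. The libraries of the groups did not overlap in 6 members, against 45.3% of all tested genes. In bulk RNA, a change in the share of cells that express a gene and a change in RNA per cell cannot be told apart.

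**Figure D1:**
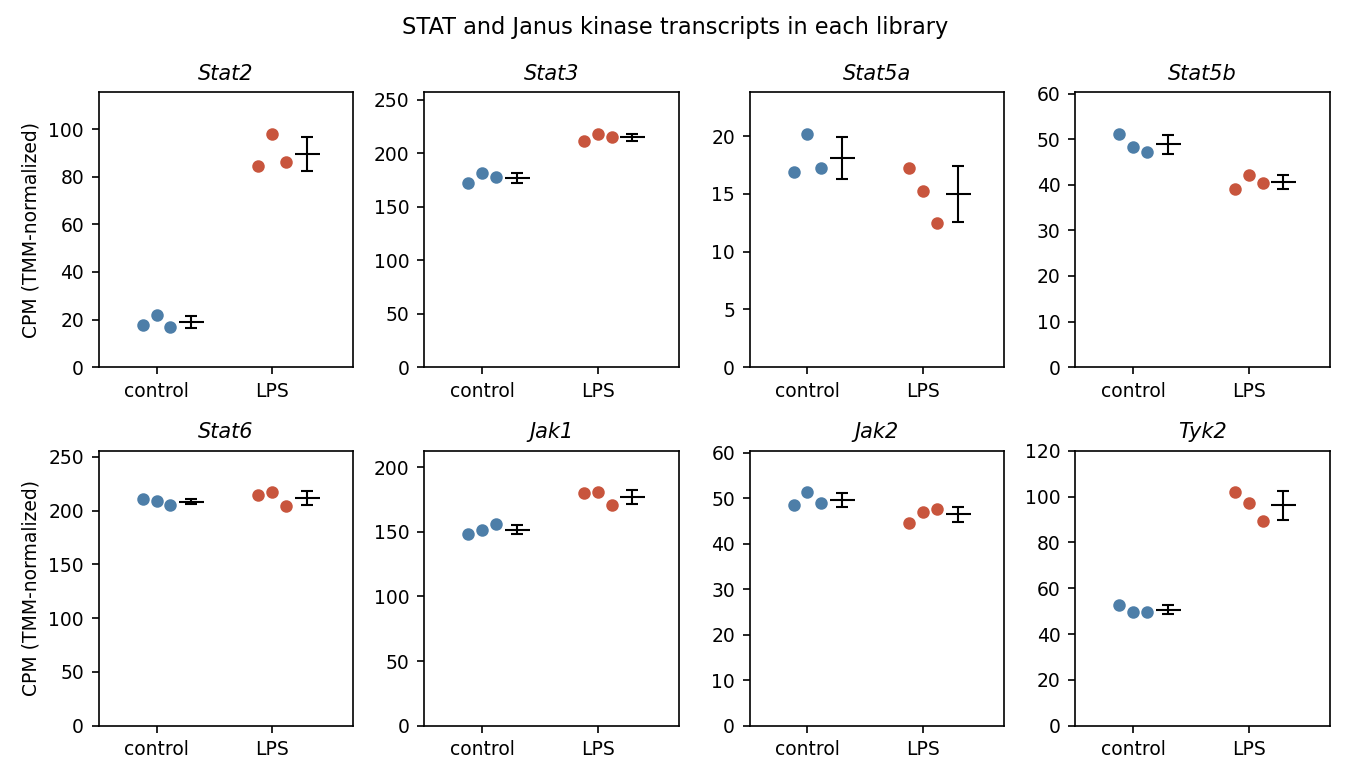
Level of the 8 members with counts, in CPM on axes from 0, with 1 point per library (replicates 1 to 3 from left to right, control blue, LPS red) and the mean ± SD of each group in black. Stat2 and Tyk2 stand apart most clearly, with LPS means of 89.6 and 96.2 CPM against control means of 18.9 and 50.7 CPM.

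Stat2 was the member with the largest rise. STAT2 pairs with another STAT and with IRF9 in the complex that switches on genes after type I interferon. Its gene (ENSMUSG00000040033) lies on the plus strand at chr10:128270559-128292849 of mm10. It had 304, 387 and 317 counts in control replicates 1 to 3 and 1333, 1607 and 1418 in LPS replicates 1 to 3. In CPM these were 17.7, 21.9 and 17.1 in control and 84.5, 98.0 and 86.3 with LPS. The lowest LPS library was far above the highest control library. The mean rose from 18.9 ± 2.64 to 89.6 ± 7.33 CPM, a fold of 4.74. The log2 fold change was 2.24 (SE 0.0881, 95% interval 2.06 to 2.43, edgeR adjusted p = 3.58e-11), the 162nd highest of all tested genes. With each library left out in turn it stayed between 2.17 and 2.36.

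The profile of Stat2 over the 6 libraries was most like those of Ifi207, Plpp3 and Crtam, by Euclidean distance between log2 CPM values centred on each gene's mean. The distances were 0.169 for Ifi207, an interferon-inducible gene, 0.19 for Plpp3, a lipid phosphatase, and 0.201 for Crtam, an adhesion molecule of lymphocytes. Their log2 fold changes were 2.20, 2.30 and 2.24. Such distances are set largely by the difference between the groups, which all 4 genes share.

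To show the DNA just before the starts of the members that rose most, the 250 bases upstream of the RefSeq starts of Stat2, Tyk2 and Stat3 on GRCm38.p6 are given 5′ to 3′ on the strand of the gene. Capitals mark matches, on either strand, to 3 patterns. These are TTC and GAA with 3 bases of any kind between them or with 4, the spacings known for STAT dimers, and a pair of GAAA with 2 bases of any kind between, the interferon-stimulated response element (ISRE) known for the STAT2 complex. Stat2 is at chr10:128270248-128270497 on the plus strand, Tyk2 at chr9:21131276-21131525 on the minus strand and Stat3 at chr11:100939541-100939790 on the minus strand.
Stat2: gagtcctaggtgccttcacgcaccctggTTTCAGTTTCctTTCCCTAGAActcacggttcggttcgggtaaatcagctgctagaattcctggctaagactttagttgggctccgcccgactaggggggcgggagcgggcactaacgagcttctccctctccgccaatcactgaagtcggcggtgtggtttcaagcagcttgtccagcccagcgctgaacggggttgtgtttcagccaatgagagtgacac
Tyk2: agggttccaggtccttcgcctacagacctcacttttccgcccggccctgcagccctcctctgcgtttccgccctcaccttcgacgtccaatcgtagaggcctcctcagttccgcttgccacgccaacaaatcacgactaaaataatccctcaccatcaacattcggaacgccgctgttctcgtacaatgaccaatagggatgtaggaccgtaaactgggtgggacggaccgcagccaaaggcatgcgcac
Stat3: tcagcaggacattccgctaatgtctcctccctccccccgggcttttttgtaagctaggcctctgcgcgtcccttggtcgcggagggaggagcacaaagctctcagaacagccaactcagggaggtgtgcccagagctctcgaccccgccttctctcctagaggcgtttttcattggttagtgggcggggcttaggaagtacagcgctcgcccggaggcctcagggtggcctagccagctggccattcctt
The Stat2 sequence holds 2 matches, which do not overlap. The ISRE is read on the opposite strand, as TTTCAGTTTC on the printed strand, 222 to 213 bases before the start. The pattern with 4 bases between is matched by TTCCCTAGAA, 210 to 201 bases before the start. The Tyk2 and Stat3 windows hold none of the 3 patterns. Of 32851 RefSeq promoters of 27025 genes cut to the same length, 2.98% hold the ISRE, 5.85% the STAT pattern with 4 bases between and 7.02% that with 3. All 9 members matched the table, with 12 starts between them. The other start with a match was the second of Stat4, with the ISRE. A match is a run of letters and does not show binding.

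**Figure D2:**
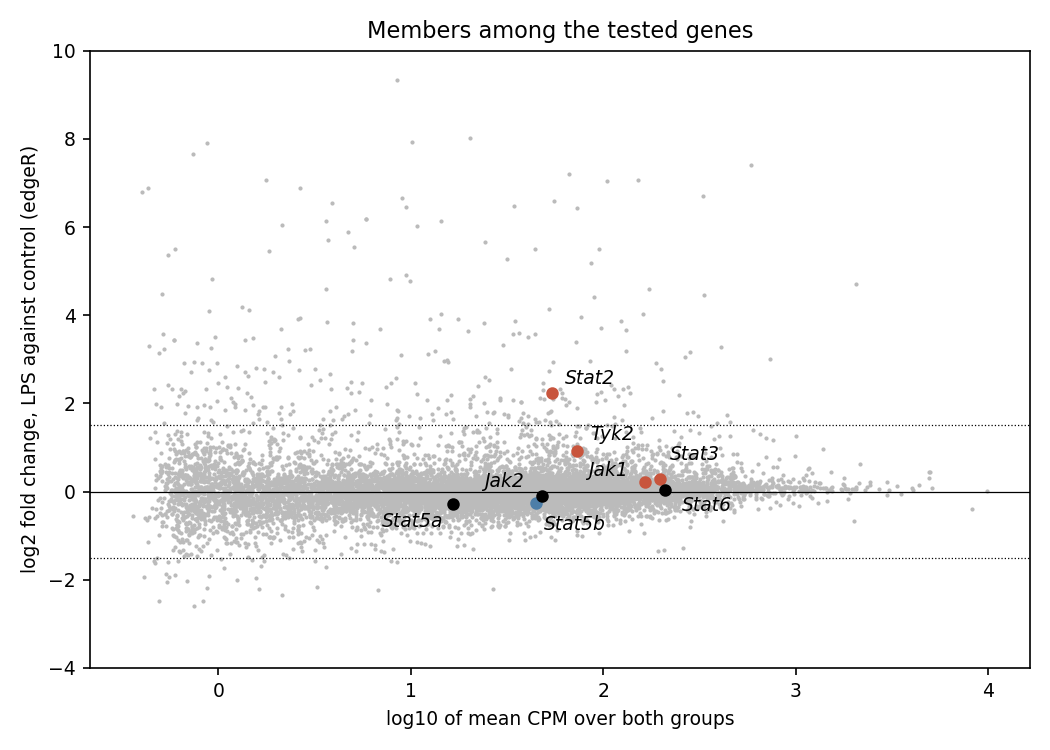
Log2 fold change of LPS against control against the log10 of the mean CPM for the 12296 tested genes, with the 8 tested members named and coloured by their edgeR call (red higher, blue lower, black not called) and dotted lines at the DEG threshold of 1.5. Stat2 at 2.24 and Tyk2 at 0.92 lie above the bulk of genes, 83.95% of which have an absolute log2 fold change below 0.5, and the other 6 members lie within it.

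Stat3 carries the signal of interleukin-6 and interleukin-10. Its gene (ENSMUSG00000004040) is on the minus strand at chr11:100885098-100939540. It measured 172, 181 and 178 CPM in control replicates 1 to 3, and 212, 218 and 216 CPM in LPS replicates 1 to 3. All LPS libraries were above all control libraries. The mean rose by 21.4%, from 177 ± 4.76 to 215 ± 3.31 CPM. The log2 fold change was 0.28 (SE 0.0429, 95% interval 0.19 to 0.37, edgeR adjusted p = 0.000127). Scaled by library totals alone it was 0.18, with an edgeR adjusted p of 0.00362.

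Stat5a and Stat5b encode a pair of closely related proteins that act below growth hormone, prolactin, interleukin-2 and some colony-stimulating factor receptors. Their genes are neighbours of Stat3, with Stat5a (ENSMUSG00000004043) on the plus strand at chr11:100859351-100885169 and Stat5b (ENSMUSG00000020919) on the minus strand at chr11:100780731-100850724. Stat5b measured 51.1, 48.2 and 47.2 CPM in control replicates 1 to 3 and 39.0, 42.1 and 40.4 CPM in LPS replicates 1 to 3. The groups did not overlap. The mean fell by 17.0%, from 48.9 ± 2.04 to 40.5 ± 1.55 CPM, with a log2 fold change of -0.27 (SE 0.0618, 95% interval -0.40 to -0.14, edgeR adjusted p = 0.00344). Scaled by library totals alone it was -0.37, with an edgeR adjusted p of 0.000267.

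Stat5a measured 16.9, 20.2 and 17.3 CPM in control replicates 1 to 3 and 17.2, 15.2 and 12.5 CPM in LPS replicates 1 to 3. The groups overlapped, since LPS replicate 1 was above control replicate 1. The log2 fold change was -0.27 (SE 0.121, 95% interval -0.53 to -0.015), close to that of Stat5b, but the edgeR adjusted p was 0.098. The call turned on 1 library: without LPS replicate 1 the log2 fold change was -0.38 with an edgeR adjusted p of 0.0324. It also turned on the scaling, with -0.37 and an edgeR adjusted p of 0.0242 for library totals alone.

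Within a library, the ratio of Stat5a to Stat5b CPM was 0.371 ± 0.0447 in control and 0.371 ± 0.0669 with LPS. The log2 ratio differed by -0.012, with p = 0.9 (0.9 after adjustment over 5 ratios) by a two-sided exact permutation test over the 6 libraries. Its sign turned without control replicate 2 (0.079) and without LPS replicate 3 (0.11). The transcripts of this pair are partly identical: 265 stretches of 100 bases are shared, which is 3.44% of those in Stat5a and 4.79% of those in Stat5b, and no other pair of members shares any. The longest run common to both is 324 bases of coding sequence, in exons 7 to 9 of 20 in Stat5a and in exons 6 to 8 of 19 in Stat5b. Its first 100 bases, at chr11:100874023-100874122 (GRCm38, plus strand, Stat5a exon 7) and at chr11:100798602-100798701 (minus strand, Stat5b exon 6), show where a read could come from either gene.
Stat5a and Stat5b: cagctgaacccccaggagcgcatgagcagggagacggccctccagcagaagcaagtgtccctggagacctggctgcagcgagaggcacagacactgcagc
How such reads were counted is not given in the sources used here, so both values carry this uncertainty. Stat5a also shares 72 exonic bases with the end of Stat3 on the opposite strand, which is 1.01% of Stat5a and 0.756% of Stat3, and the use of strand in counting is not given either.

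Stat6 is the factor of interleukin-4 and interleukin-13 signalling (ENSMUSG00000002147, plus strand, chr10:127642986-127660957). It measured 211, 209 and 206 CPM in control replicates 1 to 3 and 215, 217 and 204 CPM in LPS replicates 1 to 3. The control libraries lay within the range of the LPS libraries. The log2 fold change was 0.024 (SE 0.0431, 95% interval -0.068 to 0.12, edgeR adjusted p = 0.713), and it was -0.074 with library totals alone.

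Stat4, the factor of interleukin-12 signalling in T and NK cells (ENSMUSG00000062939, plus strand, chr1:51987148-52107189), had 0 counts in each of the 6 libraries. Allowing for 3 counts, its level was below 0.161 to 0.19 CPM, a limit for counting error only. A share of 26.7% of its exonic bases is also in Gm28177, a gene on the same strand that had 0 counts in all libraries. Of the 11 markers of T and NK cells, 7 were likewise at 0 in all libraries. Of the other 4, Cd3d, Cd4 and Trac had between 0 and 3 counts per library, and Lck had 106 to 178.

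Of the kinases, Tyk2 changed most. TYK2 serves the type I interferon, interleukin-10 and interleukin-12 receptors. Its gene (ENSMUSG00000032175) is on the minus strand at chr9:21104068-21131243. It measured 52.8, 49.7 and 49.6 CPM in control replicates 1 to 3 and 101.8, 97.2 and 89.5 CPM in LPS replicates 1 to 3. The groups were far apart. The mean rose from 50.7 ± 1.85 to 96.2 ± 6.21 CPM, a fold of 1.90, and the log2 fold change was 0.92 (SE 0.0576, 95% interval 0.80 to 1.05, edgeR adjusted p = 8.13e-09). It ranked 559th among all tested genes by signed log2 fold change. A share of 8.07% of its exonic bases lies opposite 1700084C06Rik, which had 0 counts in all libraries.

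Jak1 serves nearly all interferon and interleukin-6 family receptors (ENSMUSG00000028530, minus strand, chr4:101152367-101265282). It measured 148, 151 and 156 CPM in control replicates 1 to 3 and 179.7, 180.4 and 171 CPM in LPS replicates 1 to 3. The groups did not overlap. The mean rose by 16.6%, from 152 ± 3.82 to 177 ± 5.45 CPM, with a log2 fold change of 0.22 (SE 0.0448, 95% interval 0.13 to 0.32, edgeR adjusted p = 0.00134). Scaled by library totals alone it was 0.12, with an edgeR adjusted p of 0.0398.

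Jak2 serves the interferon-gamma receptor and the receptors of growth hormone, erythropoietin and some colony-stimulating factors (ENSMUSG00000024789, plus strand, chr19:29251828-29313080). It measured 48.5, 51.3 and 49.1 CPM in control replicates 1 to 3 and 44.6, 47.1 and 47.7 CPM in LPS replicates 1 to 3. All LPS libraries were below all control libraries, by a narrow gap. The log2 fold change was -0.094 (SE 0.0582, 95% interval -0.22 to 0.031) and the edgeR adjusted p was 0.24. With library totals alone it was -0.19, with an edgeR adjusted p of 0.0171.

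**Figure D3:**
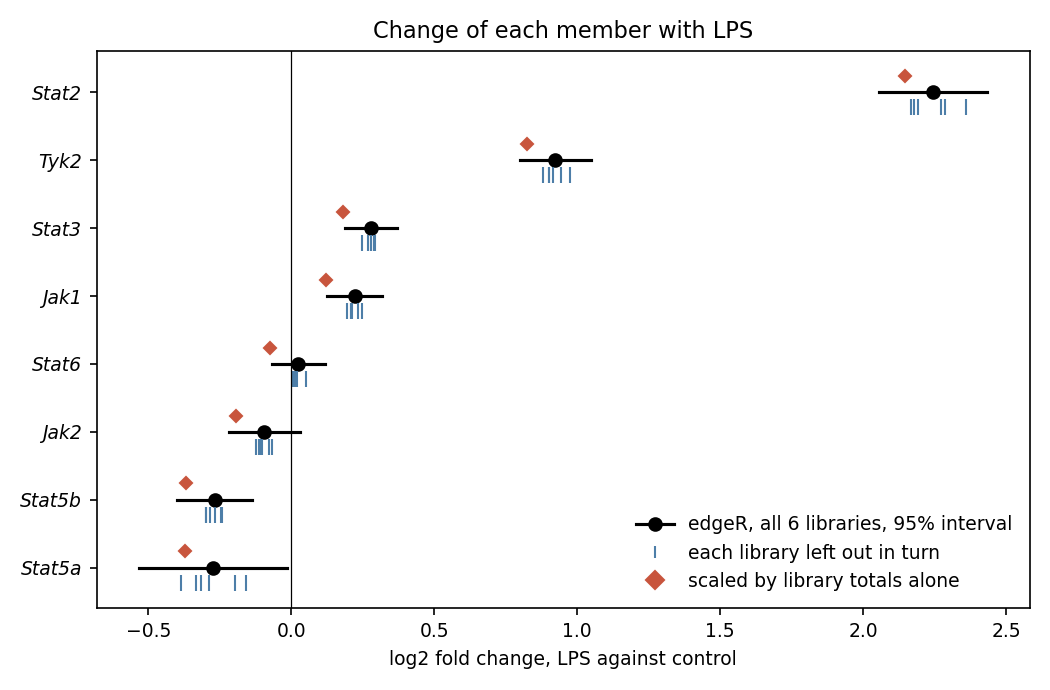
Log2 fold change of LPS against control for the 8 tested members, as the edgeR value with its 95% interval (black), the values with each library left out (blue ticks) and the value scaled by library totals alone (red). The intervals of Stat2, Tyk2, Stat3 and Jak1 lie above 0 and those of Stat5b and Stat5a below 0 (Stat5a with an adjusted p of 0.098), while those of Stat6 and Jak2 include 0 and the value of Stat6 is below 0 with library totals alone.

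Ratios of 2 members within a library do not depend on the scaling, and 5 were compared between the groups. With 3 libraries in each group the exact permutation test cannot give a p below 0.1, so none of these ratios could pass the threshold. The ratio of Tyk2 to Jak1 was 0.334 ± 0.0197 in control and 0.543 ± 0.0213 with LPS, a log2 difference of 0.70. That of Jak2 to Jak1 went from 0.327 to 0.263, a log2 difference of -0.32. For Stat2 to Stat3 the ratio was 0.107 ± 0.013 in control and 0.416 ± 0.0285 with LPS, and the log2 difference was 1.97. For Stat2 to Stat6 the log2 difference was 2.23. In these 4 ratios the groups did not overlap, with two-sided exact permutation p = 0.1 for each and 0.13 after Benjamini-Hochberg adjustment over the 5 ratios.

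Levels of different genes were compared per kilobase (kb) of the deposited gene length. That length covers the exons of all annotated transcripts, 9527 bases over 14 transcripts for Stat3 and 4402 over 5 for Stat6. Which transcripts the cells held was not tested, so close orders and the shares below depend on this choice of length. In control cells, Stat6 had the highest level, 47.3 ± 0.593 CPM per kb, above 90.3% of tested genes. Jak1 followed at 20.99 ± 0.529 and Stat3 at 18.6 ± 0.5 CPM per kb. Jak2 stood at 9.86 ± 0.298, Stat5b at 8.82 ± 0.368 and Tyk2 at 7.38 ± 0.269 CPM per kb. Stat2 at 3.19 ± 0.446 and Stat5a at 2.54 ± 0.253 CPM per kb were the lowest members with counts. In this order, no neighbours overlapped in their library values. With LPS the order became Stat6 (48.1 ± 1.55), Jak1 (24.5 ± 0.754), Stat3 (22.6 ± 0.347), Stat2 (15.1 ± 1.24), Tyk2 (14.0 ± 0.904), Jak2 (9.24 ± 0.322), Stat5b (7.32 ± 0.28) and Stat5a (2.10 ± 0.335 CPM per kb). Only Stat2 and Tyk2 overlapped as neighbours, and both had moved above Jak2 and Stat5b.

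Of the summed level of the 5 STAT members with counts, Stat2 made up 3.96 ± 0.498% in control and 15.9 ± 0.878% with LPS. The share of Stat6 was 58.8 ± 0.719% in control and 50.5 ± 0.83% with LPS, while its own level differed little. The sum was 80.5 ± 1.20 CPM per kb in control and 95.3 ± 2.96 with LPS, and of the difference of 14.8 CPM per kb, Stat2 gave 11.9, Stat3 3.98, Stat6 0.8, Stat5b -1.501 and Stat5a -0.437. Among the 3 kinases the share of Tyk2 was 19.3 ± 0.886% in control and 29.3 ± 1.14% with LPS. Jak1 held the largest share in both groups, 54.9 ± 0.922% and 51.3 ± 0.171%. The kinase sum was 38.2 ± 0.361 CPM per kb in control and 47.7 ± 1.38 with LPS, and of the difference of 9.48 CPM per kb, Tyk2 gave 6.62, Jak1 3.48 and Jak2 -0.626.

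**Figure D4:**
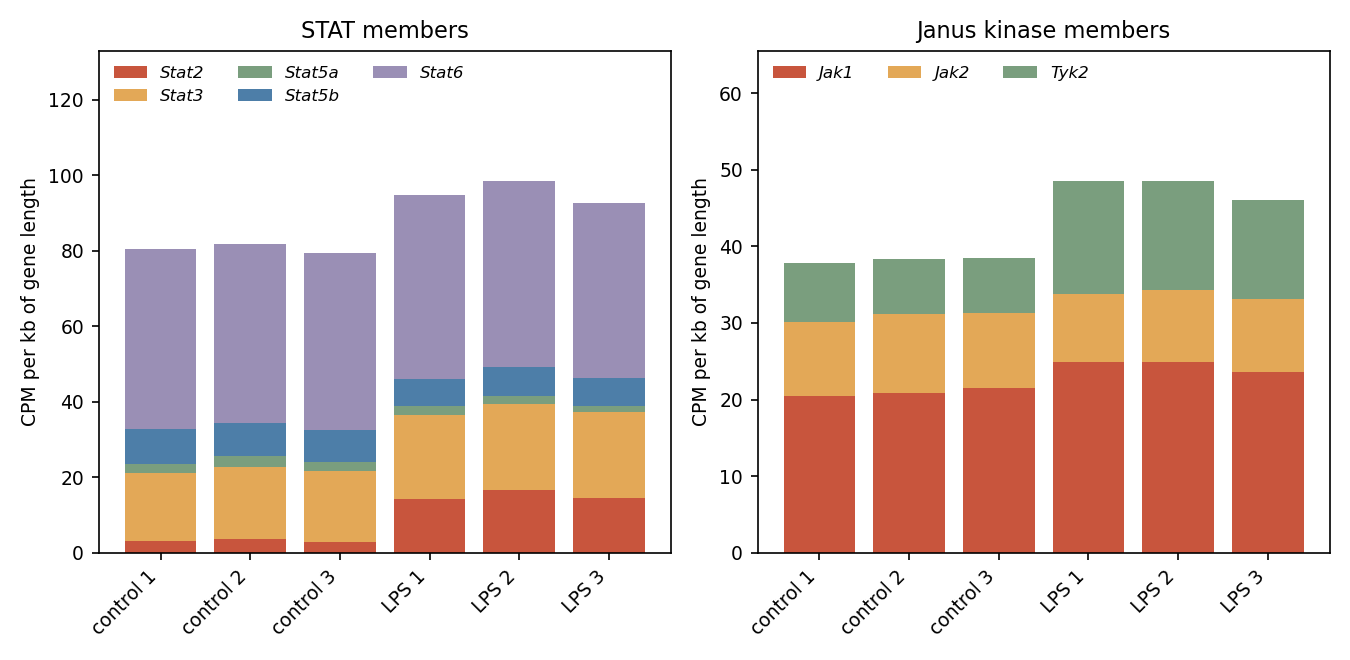
Stacked levels of the 5 STAT members with counts (left) and of the 3 kinases (right) in each library, in CPM per kb of gene length on axes from 0. Stat6 is the largest segment of the STAT bars in every library, and the segments of Stat2 and Tyk2 are larger in each LPS library than in each control library, with means of 15.1 against 3.19 and 14.0 against 7.38 CPM per kb.

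The genes around these members in the pathway were taken from 8 lists, which share some genes. Of 43 receptor genes that signal through Janus kinases, 21 were tested, with 11 higher, 2 lower and 8 not called by edgeR. Their median log2 fold change was 0.24, against 0.0036 over all tested genes. Il20rb, a subunit for interleukin-20 family cytokines, had a log2 fold change of 2.07 (SE 0.177, edgeR adjusted p = 2.88e-07). Il15ra, which binds interleukin-15, had 1.71 (SE 0.227, edgeR adjusted p = 3.1e-05). The 2 lower ones, named after their values were seen, were Ifngr1 at -0.29 and Il6st at -0.19. With library totals alone the receptor counts were 8 higher and 3 lower.

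Of 36 genes for ligands of these receptors, 5 were tested, with 4 higher and 0 lower by edgeR, or 2 higher with library totals alone. Csf3, the granulocyte colony-stimulating factor, was at or under 3 counts in each control library. It passed the filter on low counts through its LPS libraries alone, so it could be tested only as higher. Against the floor of 3 counts it was at least 42.2-fold higher with LPS, at 7.12 ± 0.174 CPM. Osm, an interleukin-6 family cytokine, had a log2 fold change of 0.32 (SE 0.101, edgeR adjusted p = 0.0225), but its call was lost with library totals alone (0.22, edgeR adjusted p = 0.0917).

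Of 20 inhibitors of the pathway, 18 were tested, with 5 higher and 6 lower by edgeR and a median log2 fold change of -0.045. Socs1, among the 5 higher, passed the filter on low counts through its LPS libraries alone. Library totals alone gave 5 higher and 9 lower, with a median of -0.14. Usp18, which blocks the type I interferon receptor, rose from 4.11 ± 1.07 to 185.7 ± 13.0 CPM, with a log2 fold change of 5.50. Socs3, which blocks signalling to STAT3, rose from 39.2 ± 0.389 to 165 ± 5.08 CPM, with a log2 fold change of 2.08. Of 12 partners and adaptors, 5 were higher and 1 lower (Ncoa1, -0.40, named after its value was seen), or 3 and 2 with library totals alone, where the median log2 fold change turned from 0.085 to -0.013. Irf9, the partner of STAT2, rose from 13.0 ± 0.28 to 55.0 ± 1.94 CPM. Its log2 fold change of 2.08 (SE 0.072, edgeR adjusted p = 8e-12) stands beside 2.24 for Stat2. Nmi, a STAT-binding protein, had a log2 fold change of 0.76.

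Of 20 interferon-stimulated genes known to be targets of the STAT2 complex, 20 were higher and 18 were DEG by edgeR. With library totals alone, 20 were also higher. Of all tested genes, 18.7% were higher and 2.4% were higher DEG by edgeR. The list was chosen with earlier results of these data known. Ifi44, Mx1 and Mx2, at control means of 0.0757, 0.153 and 0.314 CPM, passed the filter on low counts through their LPS libraries alone. They could be tested only as higher. The median log2 fold change was 4.98, or 4.68 with Ifi44, at or under 3 counts in each control library, set to its bound. Rsad2, an antiviral enzyme, went from 6.89 ± 1.20 to 1160.4 ± 76.3 CPM, and Ifit3, which binds viral RNA complexes, from 0.884 ± 0.114 to 131 ± 10.8 CPM.

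Of 15 genes known to respond to STAT3, 12 were higher, 1 was lower and 2 were not called by edgeR, with a median log2 fold change of 0.55. Myc, a growth regulator, led with 2.95, followed by Socs3. The lower gene, named after its value was seen, was Ccnd1 at -0.16. Of 10 genes known to respond to STAT5, 8 were tested, since Cish and Socs2 did not pass the filter on low counts. Of the 8, 3 were higher and 0 lower, among them Pim1, a survival kinase, at 1.26 and Osm at 0.32. Pim1 and the other higher gene, Bcl6 (0.29, named after its value was seen), are also in the STAT3 list. Library totals alone gave 2 higher, without Osm, and 1 lower. Of 12 genes known to respond to STAT6, 3 were tested and 1 was higher, Socs1 (2.37, named after its value was seen). Other STAT factors also induce this inhibitor, which was low, at 0.356 ± 0.0858 CPM in control and 1.87 ± 0.213 CPM with LPS. Socs1 passed the filter on low counts through its LPS libraries alone, so it could be tested only as higher. Other factors act on many genes of these lists, and their part in the result was not tested.

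**Figure D5:**
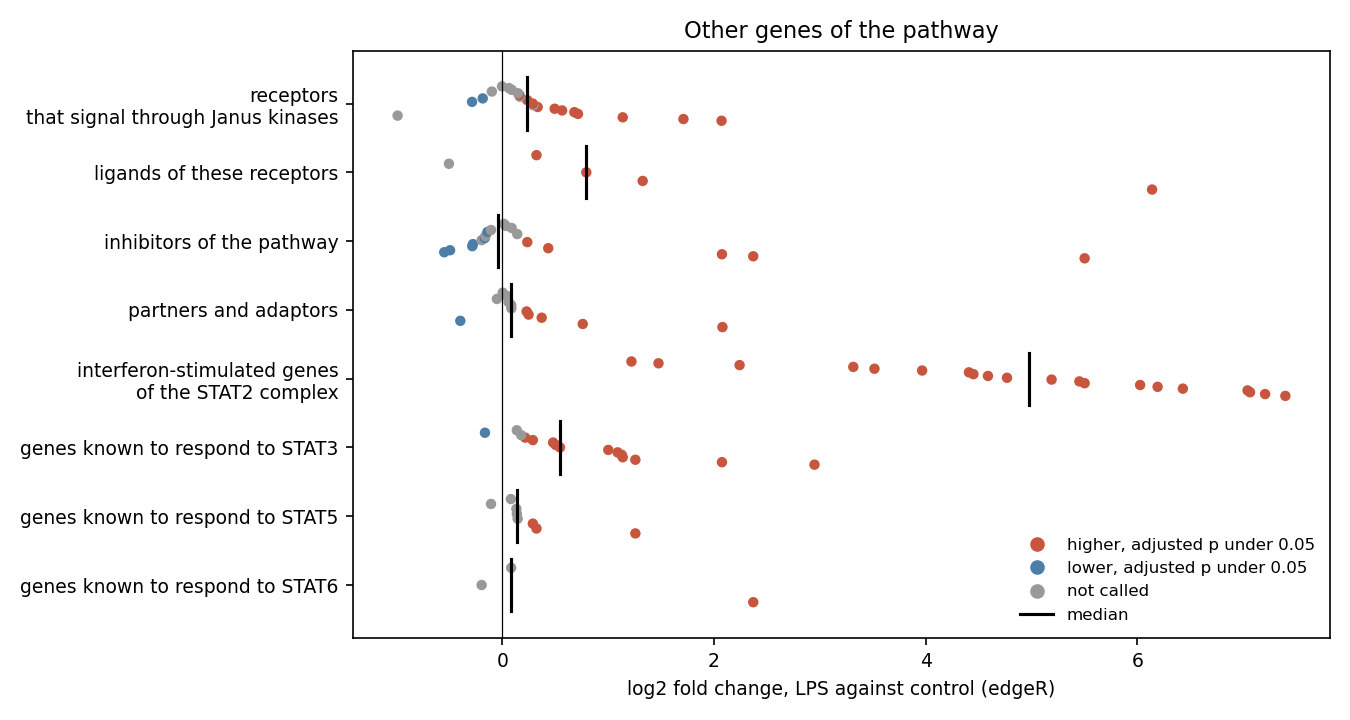
Log2 fold change of LPS against control for each tested gene of the 8 pathway lists, coloured by its edgeR call (red higher, blue lower, grey not called), with the median of each list as a bar. The interferon-stimulated genes lie highest with a median of 4.98, and the other medians lie between -0.045 and 0.79 (with library totals alone, those of partners and of STAT6 responders turn to -0.013 and -0.014).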

How the data were processed

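The authors deposited whole-number read counts per gene for 54532 genes in 6 libraries, without normalization, and the gene length and position beside them. The submitters' processing notes name featureCounts 1.5.0-p3 and the build mm10. The aligner, annotation and use of strand are not given in the sources used here. Gene length is in bases, of another unit than the counts, as deposited. The deposited table of the authors' own comparison holds fold changes and p-values and was not used. Samples were grouped by their labels.

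Counts were tested with edgeR 4.0.16 (quasi-likelihood test, TMM, filterByExpr, prior count 0.125, no replicate term) under R 4.3.3, over 12296 genes with Benjamini-Hochberg adjustment at 0.05, and the code was tested on simulated data. A DEG also had an absolute log2 fold change over 1.5. Ratios were tested with scipy 1.17.1 under Python 3.11.15 and figures made with matplotlib 3.10.9. Every gene of the table had a name. Genes shared with others, exons and identical stretches were taken from GENCODE release M21 on GRCm38, where all 9 members had the positions and lengths of the deposited table. Promoters came from RefSeq on GRCm38.p6.

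All members are named in every library. From each list are named the 2 called genes with the largest change of those whose mean count is 50 or more, and for Stat2 the 3 nearest profiles. Members and lists were chosen with earlier results of these data known.

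Alternatives were DESeq2 1.42.0, library totals alone, a replicate block, robust dispersion, RLE size factors, a prior count of 2, glmTreat, no filter or one at a mean of 10 counts, and each library left out in turn. Reads carry no molecular identifiers, so the floor of 3 counts covers counting error only. Replicate pairs differed beyond sampling noise (chi-square per gene 3.47 to 7.35).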

Additional observations from a re-analysis of the deposited data

How the results depend on the processing

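The calls of Stat2, Tyk2, Stat3, Jak1 and Stat5b kept their direction and side of the threshold with DESeq2, RLE size factors, library totals alone, no filter, a filter at a mean of 10 counts, a prior count of 2, robust dispersion, and each library left out. With library totals alone, 3 members were lower, since Stat5a was at -0.37 (edgeR adjusted p = 0.0242) and Jak2 at -0.19 (edgeR adjusted p = 0.0171), and Stat6 turned to -0.074 (edgeR adjusted p = 0.184). This scaling moved the median log2 fold change of all tested genes from 0.0036 to -0.095. Leaving out single libraries, 1 to 2 members were lower, Stat5a lay between -0.38 and -0.16, and the log2 ratio of Stat5a to Stat5b lay between -0.15 and 0.11, positive without control replicate 2 (0.079) and without LPS replicate 3 (0.11). Without control replicates 2 and 3, chosen after the data were seen, Stat2 was at 2.34, Tyk2 at 0.865 and Stat5b at -0.33 (edgeR adjusted p = 0.0154).

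A fit with the replicate block gave 4 members higher, 1 lower and 1 DEG, as without it. The numbers share no stated origin, and same-numbered libraries correlated in their deviations at 0.156, 0.0902 and -0.0198. All-gene DEG counts were 326 in the reported fit, 362 with DESeq2, 469 without a filter and 353 to 377 with a library left out. Lower counts came with a prior count of 2 (305), a filter at a mean of 10 counts (308) and library totals alone (317). Depth limits what can be said of Stat4, at 0 counts.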
